A study of Homo sapiens with 26 samples.

Results

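Aminoacyl-tRNA synthetases are the enzymes that attach each amino acid to its transfer RNA, so every ribosome depends on them. The 36 human synthetase genes described here were chosen by symbol, and all 36 were present among the 19478 coding sequences of each of the 4 deposited count tables. Of these, 20 encode cytosolic enzymes or subunits and 16, with symbols ending in 2, encode enzymes that work in mitochondria. Each symbol begins with the one-letter code of the amino acid the enzyme charges, so that WARS charges tryptophan and CARS cysteine.

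Cells keep separate synthetases for the cytosol and for mitochondria, except that GARS and KARS each give rise to both forms. Several cytosolic enzymes are held together with scaffold proteins in the multisynthetase complex, while the others are free or form smaller assemblies. A number of the cytosolic genes are known targets of ATF4, a transcription factor that is made when amino acids run short or the endoplasmic reticulum is stressed. Ribosome profiling sequences the mRNA fragments protected by ribosomes, so a count on a coding sequence reflects both how much mRNA a cell holds and how densely ribosomes occupy it.

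The series compared ways of removing ribosomal RNA from such libraries, and its title names depletion by nuclease as the concern. It holds 26 libraries from 3 human cell lines, lysed with cycloheximide and digested with RNase I. HEK293T and HEK293FT are derivatives of an embryonic kidney line and were grown in DMEM, and K562 is an erythroid-like line from a chronic myeloid leukaemia, grown in RPMI. The HEK293T table has 2 libraries each that were undepleted or treated with Ribo-Zero Gold, RiboCop or NEBNext, from fragments of 15 to 35 nt. The K562 size-selection table has 1 undepleted and 1 NEBNext library at 20 to 34 nt and again at 20 to 60 nt. The K562 kit table, at 20 to 34 nt, has undepleted, FastSelect and riboPools libraries and riboPools libraries eluted cold, 2 of each. It also has 1 library each of Ribo-Zero Plus alone, with oligos, with formaldehyde and with both. The HEK293FT table has 1 undepleted library and 1 depleted with custom oligos, at 15 to 35 nt. NEBNext and Ribo-Zero Plus cut ribosomal RNA that is paired with DNA probes, whereas Ribo-Zero Gold, RiboCop and riboPools capture it and FastSelect blocks its reverse transcription.

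Library totals ran from 46858 to 5795774 counts. Nothing in the labels says that replicates came from separate cultures, so p-values measure the spread between these libraries, which may be technical. Both libraries of the K562 size-selection table titled undepleted also have NEBNext in their depletion label, and the title was followed. The cell lines matched their markers in sum: 10 erythroid genes summed to between 3924 and 12968 CPM (counts scaled to a library total of 1000000) in the 16 K562 libraries and to at most 6.52 CPM in the 10 HEK libraries, where 7 of the 10 were at 0 throughout. A list of 8 HEK markers summed to 369 to 867 CPM in the HEK libraries and to at most 4.89 CPM in the K562 libraries. Of these 8, PAX2, EYA1 and L1CAM reached at most 3.66 CPM in the summed undepleted libraries of either HEK table. Cell line, growth medium and experiment differ together between the tables, and HEK fragments were also cut at another size, so these cannot be told apart in any contrast of K562 with HEK cells. The 3 Ribo-Zero Plus libraries with oligos or formaldehyde were shallow, at 116742 to 184722 counts, and stood apart from the rest of their table, so results that use them are also given without them.

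In the undepleted libraries, footprints were several times denser on the cytosolic genes than on the mitochondrial ones. Densities are given as CPM per kb of coding sequence, averaged within each table and then over the 4 tables. The 20 cytosolic genes had a median density of 162, from 55.5 for CARS to 264 for TARS, and the 16 mitochondrial genes had a median of 23.0, from 9.13 for VARS2 to 65.4 for IARS2. The classes overlapped only at their edges, where IARS2 (65.4) and YARS2 (55.5) reached the level of CARS. Among all 13 amino acids with a cytosolic and a separate mitochondrial enzyme of the same name, the cytosolic gene was denser in each of the 4 tables. The ratio of the 4-table means ran from 2.21 for isoleucine (IARS to IARS2) to 17.7 for serine (SARS to SARS2), with a median of 5.48. SARS2 shares 82.6% of the 28-base windows of its coding sequence with the annotated gene AC011455.2, and how reads that match several genes were counted is not given in the sources used here, so its level is uncertain.

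**Figure D1:**
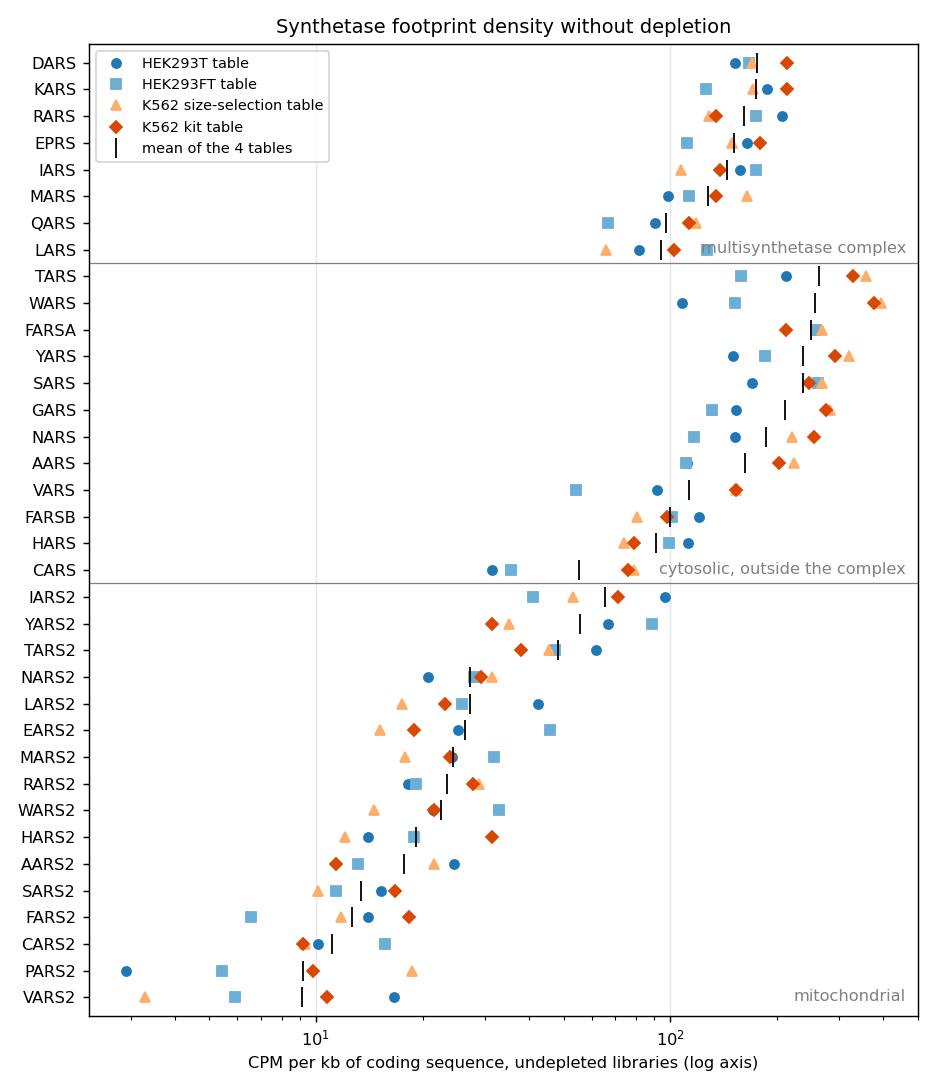
Footprint density of the 36 synthetase genes in undepleted libraries, as CPM per kb of coding sequence on a log axis, with 1 symbol per table (mean of its undepleted libraries) and a tick at the mean of the 4 tables. The mitochondrial genes, at the bottom, lie between 9.13 and 65.4 on that mean, and the cytosolic genes between 55.5 and 264.

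TARS, which charges threonine, WARS, which charges tryptophan, and FARSA, the alpha subunit of the phenylalanine enzyme, were the densest cytosolic genes. Their densities were 264 ± 94.0, 257 ± 148 and 249 ± 24.8 CPM per kb (SD over tables, n = 4), which do not differ beyond their spread. YARS at 237 ± 82.2 and SARS (serine) at 237 ± 45.4 CPM per kb lie within that spread as well, and without the K562 size-selection table SARS came ahead of WARS. Of all 36 genes FARSA had the smallest SD over the 4 table means, at 9.98% of its mean, whereas that of WARS was 57.6%. Single libraries of FARSA varied more, at 218 and 294 CPM per kb in the undepleted HEK293T pair. The sparsest cytosolic genes were CARS at 55.5 ± 25.5, HARS (histidine) at 91.2 ± 17.6 and LARS (leucine) at 94.3 ± 26.4 CPM per kb. HARS and LARS differ by less than their spread, and QARS at 97.1 ± 23.5 and FARSB at 100.03 ± 16.4 CPM per kb lie within it too. Over 3 tables, without the K562 size-selection table, QARS rather than LARS was among the lowest 3.

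Among the mitochondrial enzymes the densest were IARS2 (isoleucine) at 65.4 ± 24.2, YARS2 (tyrosine) at 55.5 ± 27.4 and TARS2 (threonine) at 48.2 ± 9.94 CPM per kb (SD over tables, n = 4). The sparsest were VARS2 (valine) at 9.13 ± 5.84, PARS2 (proline) at 9.21 ± 6.90 and CARS2 (cysteine) at 11.1 ± 3.11 CPM per kb. Neither the upper 3 nor the lower 3 can be ordered within their spread. FARS2 at 12.7 ± 4.90 and SARS2 at 13.4 ± 3.11 CPM per kb lie within the spread of the lower 3 as well. Depth limits these genes: in the undepleted K562 library at 20 to 60 nt, the shallowest of all, 13 of the 16 mitochondrial genes had 3 counts or fewer and 6 had none, and no cytosolic gene was that low.

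The phenylalanine enzyme is built from equal numbers of FARSA and FARSB chains, and FARSA carried the denser footprints in every one of the 26 libraries. In the 3 undepleted HEK libraries FARSA lay at 218 to 294 and FARSB at 101 to 127 CPM per kb. In the 4 undepleted K562 libraries FARSA lay at 206 to 293 and FARSB at 72.3 to 102 CPM per kb. The ratio of FARSA to FARSB ranged from 1.13 to 4.06 over all 26 libraries, with a median of 2.31. FARSB shares 3.04% of its 28-base windows with the pseudogene FARSBP1 and FARSA shares none. The part of these shared windows in the ratio was not tested.

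The 8 enzymes of the multisynthetase complex (DARS, EPRS, IARS, KARS, LARS, MARS, QARS and RARS) spanned a narrower range than the 12 other cytosolic genes. Their 4-table means ran from 94.3 (LARS) to 176 (DARS) CPM per kb, with a median of 148, and the others ran from 55.5 to 264 with a median of 198. Within the undepleted libraries the densest of the 8 exceeded the sparsest by 2.07 to 3.50 times. EPRS, which joins the glutamate and proline enzymes in one long chain of 4539 coding nt, stood at 151 ± 29.05 CPM per kb (SD over tables, n = 4), near the middle of the group.

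As a share of all coding counts, the synthetases took more of K562 footprints than of HEK footprints. The 20 cytosolic genes together made up 0.576% to 0.652% of counts in the 10 HEK libraries and 0.712% to 0.861% in the 16 K562 libraries, with no overlap. The 16 mitochondrial genes made up 0.0808% to 0.117% in HEK libraries and 0.0598% to 0.0977% in K562 libraries, and these ranges overlap. Without the 3 shallow Ribo-Zero Plus libraries, the K562 ranges were 0.790% to 0.861% and 0.0598% to 0.0831%. The summed density of the cytosolic class over that of the mitochondrial class was 4.53 to 6.32 in HEK libraries and 6.40 to 13.3 in K562 libraries, or 8.61 to 13.3 without those 3. These are descriptions over libraries that share experiments within a table, and no test was run on them.

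**Figure D2:**
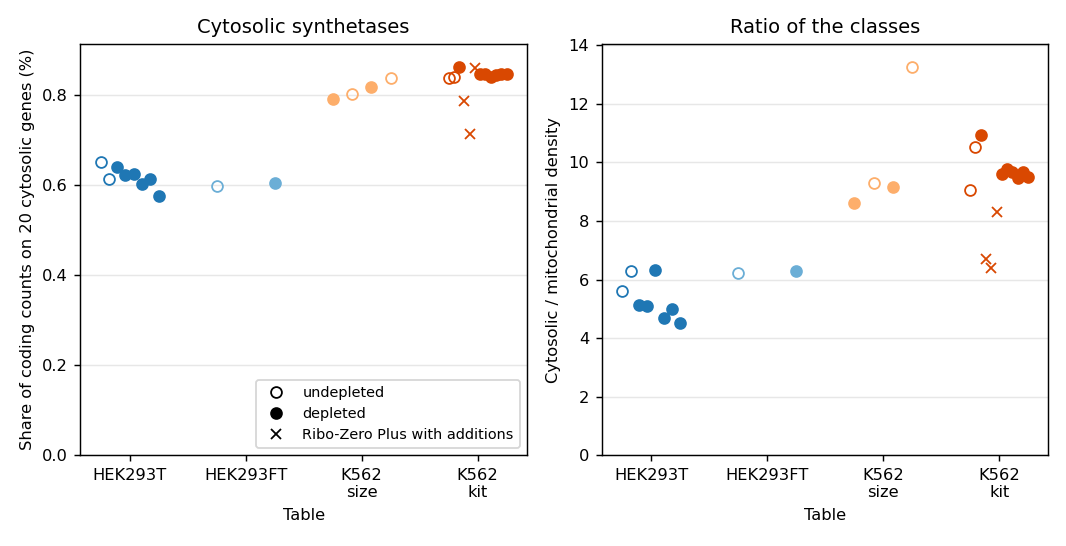
Left, the percentage of coding counts on the 20 cytosolic synthetase genes. Right, the cytosolic over mitochondrial density ratio, for each of the 26 libraries by table. Open circles are undepleted libraries, filled circles depleted ones and crosses the 3 Ribo-Zero Plus libraries with additions. HEK libraries lie at 0.576% to 0.652% and K562 libraries at 0.712% to 0.861%.

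Genes were then compared between the lines in undepleted libraries, summed within each table so that 2 K562 tables stood against the HEK293T and HEK293FT tables. By the quasi-likelihood test of edgeR, with p-values adjusted over all genes by Benjamini-Hochberg, 12 of the 35 synthetase genes tested passed an adjusted p of 0.05, beside 44.5% of all 7576 genes tested. The 9 that were higher in K562 were all cytosolic (AARS, CARS, GARS, NARS, QARS, TARS, VARS, WARS and YARS), where 20.5% of all genes were called higher. The 3 that were lower were RARS, EARS2 and YARS2, where 24% of all genes were called lower. PARS2 had too few counts to be tested. The median log2 fold change, K562 over HEK, was 0.44 for the 20 cytosolic genes and -0.29 for the 15 mitochondrial genes tested, beside -0.05 for all genes.

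WARS showed the widest gap. Its level was 175 and 130 CPM in HEK293T, 215 CPM in HEK293FT, 473 and 640 CPM in the K562 size-selection table and 533 and 530 CPM in the K562 kit table. Every K562 library lay above every HEK library, with a log2 fold change of 1.52 ± 0.21 (SE) and an adjusted p of 1.13e-08 by edgeR. The WARS transcript lies on the minus strand at chr14:100333818-100376805 (GRCh38) and has 11 exons.

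CARS and VARS followed. CARS was at 108 and 32.6 CPM in HEK293T and 79.9 CPM in HEK293FT, and at 163, 192, 183 and 158 CPM in the K562 libraries, without overlap (log2 1.24 ± 0.24, SE). VARS, which charges valine, was at 392 and 306 CPM in HEK293T, 205 CPM in HEK293FT and 568, 598, 610 and 551 CPM in K562, again without overlap (log2 1.22 ± 0.21, SE). By edgeR, the adjusted p was 2.26e-05 for CARS and 1.98e-06 for VARS.

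GARS (glycine), AARS (alanine), TARS, NARS (asparagine) and YARS (tyrosine) rose by similar amounts, with log2 fold changes of 1.11, 0.98, 0.97, 0.97 and 0.89 and SEs of 0.20 each. GARS read 400 and 280 CPM in HEK293T, 291 CPM in HEK293FT and 678, 576, 601 and 619 CPM in K562. AARS read 383, 267 and 322 CPM in the same HEK libraries and 578, 726, 606 and 578 CPM in K562. For these, for TARS (344 to 482 against 697 to 790 CPM), for NARS (192 to 261 against 341 to 428 CPM) and for YARS (235 to 294 against 460 to 534 CPM), the undepleted HEK and K562 libraries did not overlap. Their adjusted p lay between 6.08e-06 and 0.000255 by edgeR.

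QARS, which charges glutamine and is the 1 multisynthetase enzyme called higher, read 233 and 189 CPM in HEK293T, 155 CPM in HEK293FT and 294, 256, 255 and 269 CPM in K562. The groups did not overlap, and the log2 fold change was 0.70 ± 0.21 (SE; adjusted p = 0.00392 by edgeR). QARS missed the threshold by DESeq2 (adjusted p = 0.108) and without either K562 table or without HEK293FT (0.0526 to 0.0877). RARS, the arginine enzyme of the same complex, was lower in K562, at 458, 365 and 347 CPM in HEK libraries and 210, 299, 266 and 269 CPM in K562. Its log2 fold change was -0.48 ± 0.20 (SE; adjusted p = 0.0447 by edgeR), but it was not called in 6 of the 10 alternatives, among them DESeq2 size factors (0.0549).

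YARS2 and EARS2 were the mitochondrial genes called lower in K562. YARS2 read 99.98 and 91.2 CPM in HEK293T, 128 CPM in HEK293FT and 57.8, 42.7, 49.3 and 40.7 CPM in K562, without overlap (log2 -1.23 ± 0.28, SE; adjusted p = 0.00025 by edgeR). Its cytosolic partner YARS moved the other way, so the ratio of YARS to YARS2 density was 2.25 and 2.08 in the HEK tables and 9.14 and 9.31 in the K562 tables. EARS2 charges the mitochondrial glutamate tRNA and also the glutamine tRNA, whose glutamate is then converted in place. EARS2 read 33.3, 45.6 and 72.2 CPM in HEK libraries and 26.3, 21.3, 24.7 and 34.9 CPM in K562. The EARS2 groups overlapped, the log2 fold change was -1.04 ± 0.34 (SE; adjusted p = 0.0109 by edgeR), and the size fell to -0.33 without HEK293FT, where it was not called.

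**Figure D3:**
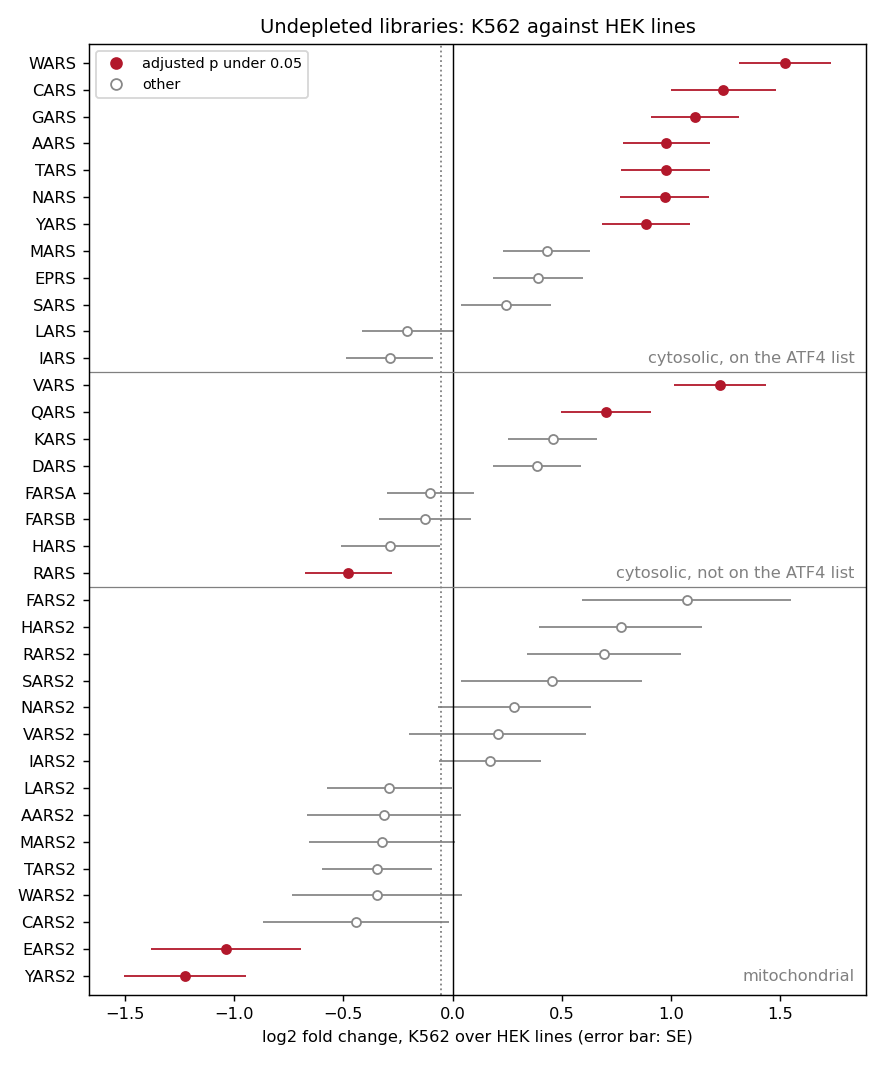
Log2 fold change of each synthetase gene tested, K562 over HEK lines, in undepleted libraries summed by table, with SE bars. Filled points passed an adjusted p of 0.05 by edgeR, and the dotted line is the median of all 7576 genes (-0.05). The 9 genes called higher are cytosolic, led by WARS at 1.52.

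Across every library, whatever its depletion, 4 genes kept all 16 K562 libraries above all 10 HEK libraries: NARS, VARS, WARS and YARS, beside 5.89% of all genes. WARS ranged from 130 to 230 CPM (median 164) in HEK libraries and from 375 to 640 CPM (median 515) in K562 libraries. Without the 3 shallow Ribo-Zero Plus libraries, AARS, CARS and GARS joined them, beside 9.45% of all genes. On the lower side none of the 35 was without overlap over all 26 libraries (10.2% of all genes), and IARS and YARS2 were without those 3 libraries (13.8% of all genes). IARS, which charges isoleucine, was at 558 to 669.7 CPM in the HEK libraries and at 341 to 531 CPM in those 13 K562 libraries. YARS2 was at 76.8 to 173 CPM and at 40.7 to 65.1 CPM. In undepleted libraries alone, MARS, QARS and TARS were also without overlap on the upper side (10 of 35, beside 17.3% of all genes), as were HARS and RARS on the lower side (4 of 35, beside 24.9%).

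The calls are also given by complex, to be read beside the 20.5% of all genes called higher and the 24% called lower, and no test compared the groups with each other. Of the 12 cytosolic genes outside the multisynthetase complex, 8 were higher in K562 and none was lower, with a median log2 fold change of 0.97. Of the 8 complex enzymes, 1 was higher and 1 lower, with a median of 0.39. Both subunits of the phenylalanine enzyme were near 0, with FARSA at -0.10 ± 0.20 and FARSB at -0.13 ± 0.21 (log2, SE; adjusted p = 0.707 and 0.659 by edgeR). HARS and HARS2 lie head to head on chromosome 5 and their RefSeq promoter windows overlap (chr5:140691321-140691620 and chr5:140691205-140691504, GRCh38.p14). HARS read 152 to 176 CPM in HEK libraries and 85.4 to 142 CPM in K562 libraries (log2 -0.29 ± 0.23, SE), and HARS2 read 16.7 to 28.9 and 0 to 54.6 CPM (log2 0.77 ± 0.37, SE), and neither passed the test (adjusted p = 0.315 and 0.087 by edgeR).

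A list of 12 synthetases that ATF4 is known to induce (AARS, CARS, EPRS, GARS, IARS, LARS, MARS, NARS, SARS, TARS, WARS and YARS) held 7 of the 9 higher calls and 12 of the 20 cytosolic genes. The list was chosen with earlier results of these data known. All 7 lie outside the multisynthetase complex, and the listed genes within it, EPRS, IARS, LARS and MARS, were not called. This grouping thus overlaps the one by complex, and which of them the calls follow was not tested. The median log2 fold change of the 12 listed genes was 0.93, and the share of all genes called higher was 20.5%. The 8 cytosolic genes that are not on the list had 2 called higher and 1 lower, with a median of 0.14. Of a list of 20 other ATF4-related genes, which includes ATF4 itself, 15 could be tested. Of these, 6 were higher and 6 lower in K562, where 44.5% of all genes were called in either direction. Among these, PHGDH, which starts serine synthesis, was at -2.83 ± 0.26, TRIB3, a pseudokinase of the stress response, at 2.31 ± 0.46, and STC2, a secreted glycoprotein, at -2.08 ± 0.43 (log2, SE). ATF4 itself is 1 of the 6 lower genes of that list and is named here after its value was seen. Its footprints were at 91.4 and 103 CPM in the summed HEK293T and HEK293FT libraries and 38.0 and 22.1 CPM in the K562 tables (log2 -1.92 ± 0.33, SE; adjusted p = 1.56e-06 by edgeR).

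ATF4 binds DNA together with C/EBP proteins at a composite element, searched here as TGATGNAA (no other motif was searched) on both strands of the RefSeq promoter windows (250 bases before to 50 after the transcript start, GRCh38.p14). The sequences below show the match in capitals with 11 bases on either side, 5′ to 3′ on the strand of the gene, for all 7 synthetase promoters that hold it. They are shown because 4 of these genes (AARS, CARS, NARS and TARS) are among those called higher in K562.
AARS: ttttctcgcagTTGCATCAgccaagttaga
CARS: cggggcggcggTTGCATCAgattctaggaa
IARS: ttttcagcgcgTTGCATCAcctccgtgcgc
MARS: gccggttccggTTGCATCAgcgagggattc
NARS: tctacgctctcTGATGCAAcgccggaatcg
TARS: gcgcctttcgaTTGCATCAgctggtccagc
YARS2: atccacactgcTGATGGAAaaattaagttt

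The windows lie at chr16:70289675-70289704 (AARS), chr11:3057407-3057436 (CARS), chr9:92293692-92293721 (IARS), chr12:57488053-57488082 (MARS), chr18:57621804-57621833 (NARS), chr5:33440956-33440985 (TARS) and chr12:32756076-32756105 (YARS2). The match begins within 14 bases of the RefSeq start in CARS (-2), IARS (-13), MARS (-4), NARS (14) and TARS (2). It begins further upstream in AARS (-187) and YARS2 (-197), with the RefSeq start counted as 0. The GENCODE transcripts begin further upstream in CARS (chr11:3057613), MARS (chr12:57487957), NARS (chr18:57622173) and TARS (chr5:33440776), so there the matches lie inside the transcript. For these genes, nearness to the start thus depends on the annotation. Promoter windows were given for 30 of the 36 genes, with none for DARS, LARS, VARS, YARS, AARS2 and VARS2. The letters were found in 6 of 16 cytosolic promoters (37.5%) and 1 of 14 mitochondrial promoters (7.14%), beside 401 of all 15843 protein-coding promoters (2.53%). By list they were in 6 of 10 promoters of synthetases that ATF4 induces and in 0 of 6 of the other cytosolic genes. The list holds known ATF4 targets, so this split is not independent of the choice of genes. Whether the element has a part in the calls was not tested. The letters were in 3 of 14 promoters (21.4%) of the other ATF4-related genes, a list that includes ATF4. The carriers differed in their change between lines: AARS, CARS, NARS and TARS were called higher, YARS2 (-1.23) was called lower, and IARS (-0.29) and MARS (0.43) were not called. WARS, GARS and QARS, which were called higher, and RARS and EARS2, which were called lower, have no match in their windows.

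Partners of the synthetases were called in both directions between the lines, in a contrast that called 44.5% of all genes. Of the scaffold proteins of the multisynthetase complex, EEF1E1 was higher in K562 (log2 0.67 ± 0.24, SE), AIMP2 was lower (-0.89 ± 0.24) and AIMP1 (0.07 ± 0.26) was not called. Of 4 genes that finish mitochondrial charging, 2 could be tested, and GATB, a subunit of the enzyme that turns glutamate on tRNA into glutamine, was lower (-0.95 ± 0.40, adjusted p = 0.0494 by edgeR). Of the proofreading enzymes, AARSD1, which clears mischarged alanine tRNA, was higher (1.39 ± 0.42) and DTD1, which removes D-amino acids from tRNA, was lower (-1.83 ± 0.36). All 4 genes of tRNA maturation and export were called, 2 in each direction, led by TRNT1, which adds the CCA end (1.68 ± 0.45), and XPOT, the tRNA exporter (-0.87 ± 0.23). Neither of the 2 selenocysteine charging genes had enough counts to be tested.

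The question the series was built for is whether depletion changes these counts. No synthetase gene was called after NEBNext in either line, which for so few genes is near the share of all genes called. In HEK293T, edgeR called 0 of the 27 synthetase genes tested for NEBNext (3.24% of all 4410 genes), 0 for Ribo-Zero Gold (0.068% of all genes) and 0 for RiboCop (0% of all genes). Unadjusted p-values under 0.05 numbered 0, 1 and 0, and DESeq2 called 0 in each. The 9 genes not tested are all mitochondrial. Member fold changes for NEBNext ran from -0.52 to 0.95 on the log2 scale, with a median of -0.03 beside 0.00 for all genes.

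FARSA was at 333 and 450 CPM in the undepleted HEK293T libraries, which all 3 of these comparisons share. Only 6, 18 and 11 of the 27 genes averaged 50 or more counts a library for NEBNext, Ribo-Zero Gold and RiboCop. Among those, FARSA had the lowest fold change each time. Sparser genes went as low as -0.52 with NEBNext and -0.49 with RiboCop on the log2 scale. FARSA read 338 and 269 CPM with NEBNext, 302 and 299 CPM with Ribo-Zero Gold and 391 and 289 CPM with RiboCop. NEBNext and RiboCop overlapped the undepleted range, and Ribo-Zero Gold lay below it. The log2 fold changes were -0.41 ± 0.21, -0.41 ± 0.18 and -0.29 ± 0.20 (SE), with adjusted p of 0.362, 0.838 and 0.998 by edgeR. On the upper side, under the same cut, RARS stood at 0.23 ± 0.19 with NEBNext and LARS at 0.34 ± 0.19 with Ribo-Zero Gold. IARS2 stood at 0.22 ± 0.21 with RiboCop, and none of these passed the test.

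In the K562 size-selection table, edgeR called 0 of 26 synthetase genes for NEBNext (2.72% of all 3715 genes), with 3 at an unadjusted p under 0.05 and 0 by DESeq2. These 3 were all cytosolic. The fit left 1 residual degree of freedom, so its spread is poorly estimated. EPRS read 699 and 662 CPM undepleted and 975 and 911 CPM with NEBNext, at 20 to 34 and 20 to 60 nt, so the groups did not overlap. Its log2 fold change was 0.53 ± 0.18 (SE), with an adjusted p of 0.0797 by edgeR. TARS read 762 and 790 CPM undepleted and 548 and 511 CPM with NEBNext (-0.47 ± 0.19, SE; adjusted p = 0.166), also without overlap, and RARS read 210 and 299 CPM and then 320 and 356 CPM, which do not overlap either (0.55 ± 0.25, SE; adjusted p = 0.281). These directions rest on the titles of the undepleted libraries.

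The effect of NEBNext was compared between the lines by an interaction term, K562 minus HEK293T. No synthetase of 27 was called by edgeR (0.296% of all 4736 genes), with 1 at an unadjusted p under 0.05 and 0 by DESeq2. The widest difference was again EPRS, at 0.68 ± 0.23 (log2, SE; adjusted p = 0.32 by edgeR). In HEK293T, EPRS read 808 and 691 CPM undepleted and 713 and 642 CPM with NEBNext (-0.13 ± 0.15, SE). Fragments of 20 to 60 nt against 20 to 34 nt gave 0 calls of 26 (0.162% of all genes), with 0 at an unadjusted p under 0.05 and 0 by DESeq2, and members ran from -0.98 to 0.36 on the log2 scale. Among the genes averaging 50 or more counts a library, the widest fold changes were 0.36 ± 0.22 for FARSA and -0.30 ± 0.19 for GARS (SE).

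**Figure D4:**
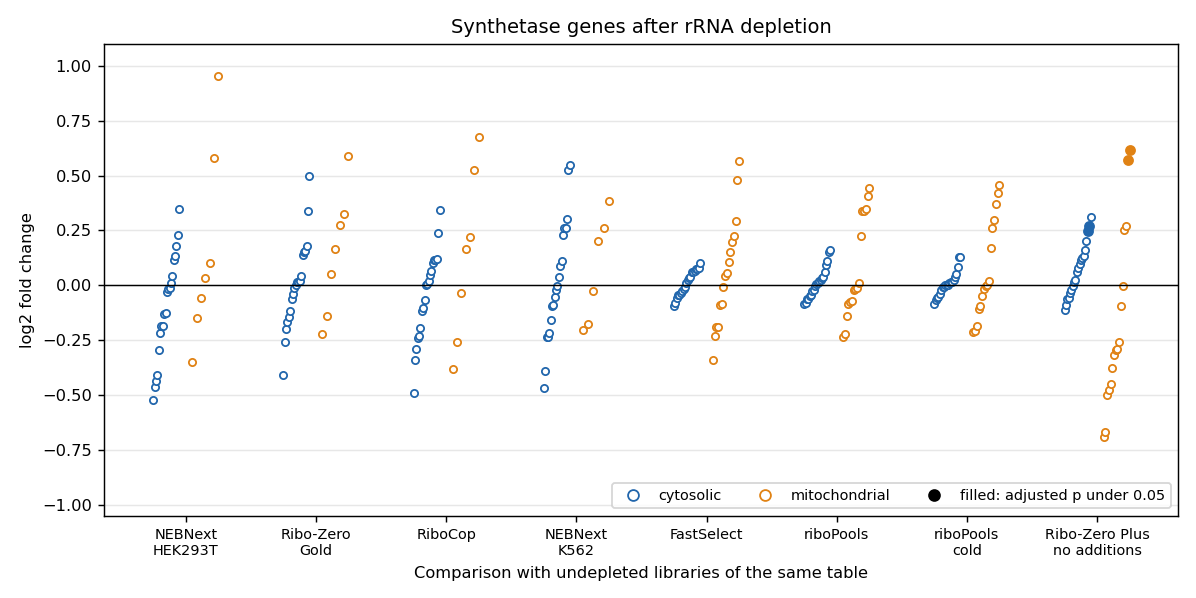
Log2 fold change of each synthetase gene tested, depleted over undepleted, in 8 comparisons by edgeR, with cytosolic genes in blue, mitochondrial genes in orange and calls at an adjusted p of 0.05 filled. The filled points are the 4 genes called under Ribo-Zero Plus without additions, and the deeper K562 kit table holds cytosolic genes within -0.10 to 0.10 for FastSelect.

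The K562 kit table, with 1031889 to 5795774 counts in its libraries other than Ribo-Zero Plus, let all 36 genes be tested. By edgeR 0 of 36 were called for FastSelect (0.0205% of all 9761 genes), 0 for riboPools (0.082% of all genes) and 0 for riboPools with cold elution (0.225% of all genes). Unadjusted p-values under 0.05 numbered 1, 4 and 2, and DESeq2 called 0 in each. Cytosolic genes stayed within -0.10 to 0.10 for FastSelect, -0.08 to 0.16 for riboPools and -0.08 to 0.13 for cold elution on the log2 scale. Mitochondrial genes, which have fewer counts, spread from -0.34 to 0.56, from -0.23 to 0.45 and from -0.21 to 0.46. MARS2 (methionine), for example, read 46.7 and 38.8 CPM undepleted, 37.5 and 30.9 CPM with FastSelect and 32.3 and 39.9 CPM with riboPools, with log2 fold changes of -0.34 ± 0.19 and -0.23 ± 0.19 (SE). EARS2 read 24.7 and 34.9 CPM undepleted and 42.3 and 36.8 CPM with riboPools, which do not overlap (0.41 ± 0.20, SE; adjusted p = 0.841 by edgeR).

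Ribo-Zero Plus without additions, a single library of 1840190 counts, was the exception in this table. It called 4 of 36 synthetase genes, all higher, beside 20.6% of all 10078 genes, or 8.95% called higher and 11.7% called lower. LARS read 424 CPM against 357 and 365 CPM undepleted (log2 0.25 ± 0.08, SE; adjusted p = 0.0101 by edgeR), and QARS read 312 CPM against 255 and 269 CPM (0.27 ± 0.09; adjusted p = 0.018). Both belong to the multisynthetase complex, and both lay above the other 8 libraries at full depth in the table, undepleted ones included, which reached 365 CPM for LARS and 279.6 CPM for QARS. The mitochondrial genes RARS2 (arginine; 71.2 CPM against 54.6 and 41.7 CPM) and AARS2 (alanine; 51.1 CPM against 32.6 and 34.9 CPM) had log2 fold changes of 0.57 ± 0.19 and 0.62 ± 0.23 (SE; adjusted p = 0.0229 and 0.0381 by edgeR). With 1 library the kit has no replicate of its own and is assumed to vary like the others. DESeq2 called 0 of the 36, beside 4.87% of all genes, with adjusted p of 0.102 to 0.192 for these 4.

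Averaged over all 4 Ribo-Zero Plus libraries, edgeR called 9 of 36 genes, 8 lower and 1 higher, beside 14.9% of all 9628 genes, or 13.4% called lower and 1.49% called higher. DESeq2 called 8. The median of all genes was itself at -0.43 on the log2 scale, and the median of the synthetases was at -0.09. The lower genes were CARS, DARS (aspartate), RARS and TARS among the cytosolic enzymes and FARS2 (phenylalanine), MARS2, PARS2 and VARS2 among the mitochondrial ones. YARS2 was the 1 gene called higher. None of these 9 was among the 4 genes called with Ribo-Zero Plus alone.

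CARS read 183 and 158 CPM undepleted and 157 CPM with Ribo-Zero Plus alone, but 48.7, 51.4 and 78.7 CPM after oligos, formaldehyde and the combination. The 3 libraries with additions lay below all others of the table, on 9, 6 and 13 counts (log2 -1.12 ± 0.26, SE; adjusted p = 0.017 by edgeR). DARS read 315, 327 and 304 CPM in the same first 3 libraries and 217, 180 and 218 CPM with additions (-0.55 ± 0.16; adjusted p = 0.0344). RARS, at 266, 269 and 304 CPM, was at 222 and 240 CPM with oligos and with formaldehyde and at 48.4 CPM, from 8 counts, with both (-0.74 ± 0.18; adjusted p = 0.02). TARS read 697, 726 and 672 CPM without additions and 595, 702 and 581 CPM with them, groups that overlap (-0.27 ± 0.08; adjusted p = 0.0334). Its fall is smaller than the median shift of all genes.

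Among the mitochondrial genes, FARS2, MARS2, PARS2 and VARS2 had 0 counts in each of the 3 libraries with additions, which together hold 466617 counts. The floor of 3 counts over these libraries is 6.43 CPM, but 16.2 to 25.7 CPM in each alone, so in single libraries FARS2 and PARS2 would lie near or below it at their undepleted level. Set against it, the summed undepleted libraries were at least 6.67-fold higher for MARS2 (42.9 CPM), at least 5.31-fold higher for VARS2 (34.1 CPM), at least 3.88-fold higher for FARS2 (24.9 CPM) and at least 2.22-fold higher for PARS2 (14.3 CPM). In the deeper Ribo-Zero Plus library without additions the same genes read 30.4, 21.2, 15.2 and 10.9 CPM. YARS2 moved in the opposite sense. It read 49.3 and 40.7 CPM undepleted and 41.8 CPM with Ribo-Zero Plus alone, and 146, 274 and 127 CPM with oligos, formaldehyde and both, from 27, 32 and 21 counts. These 3 lie above every other K562 library (log2 1.102 ± 0.33, SE; adjusted p = 0.0381 by edgeR).

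**Figure D5:**
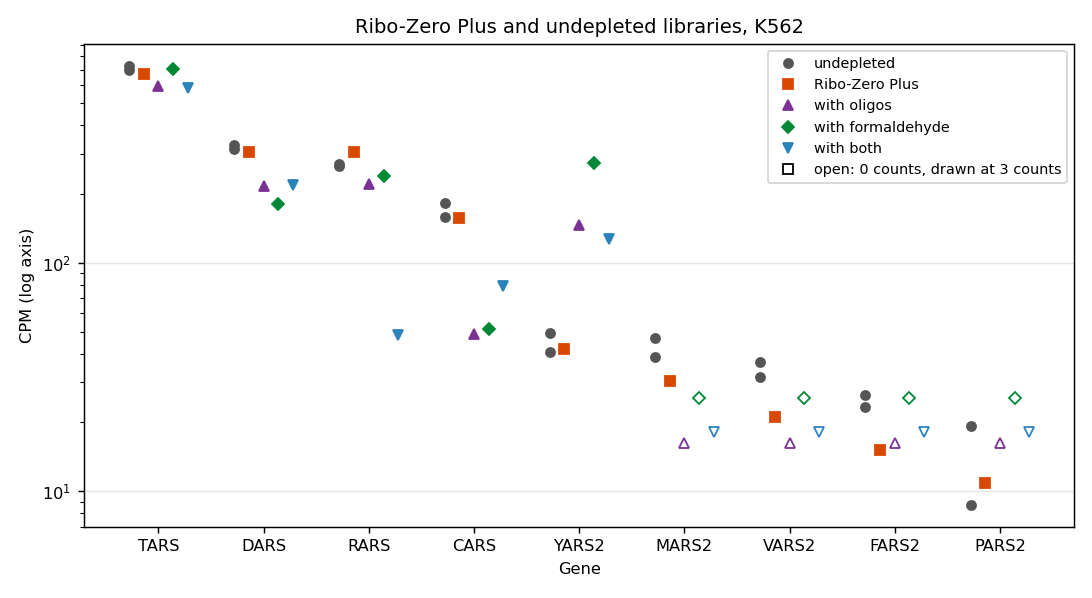
CPM on a log axis for the 9 synthetase genes called over the 4 Ribo-Zero Plus libraries, in the 2 undepleted and 4 Ribo-Zero Plus libraries of the K562 kit table. Open symbols mark 0 counts and are drawn at that library's floor of 3 counts. CARS falls to 48.7 to 78.7 CPM and YARS2 rises to 127 to 274 CPM in the 3 libraries with additions.

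These 9 calls depend on how the fit is made. In a fit without the other kits, 0 of 35 genes were called (0% of all genes), and with DESeq2 size factors 5 of 36 (8.71% of all genes). Leaving out either undepleted library left 1 call (1.57% and 1.72% of all genes), and leaving out any of the 4 Ribo-Zero Plus libraries gave 18 to 21 (29.8% to 36.5% of all genes).

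Custom oligos in HEK293FT were compared as 1 library against 1, with no test. Of the 34 synthetase genes averaging 50 or more counts, 0 differed by 2-fold or more, beside 0.46% of all 7387 such genes. Their log2 ratios, depleted over undepleted, ran from -0.37 for HARS2 (22.3 against 28.9 CPM) to 0.75 for VARS2 (31.7 against 18.9 CPM), with a median of -0.02. The cytosolic genes lay between -0.20 for WARS (187 against 215 CPM) and 0.22 for NARS (224 against 192 CPM).

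The coding sequences of both classes were also described. Cytosolic genes had a median length of 2078 nt, a median GC content of 49.0% and a median purine content of 54.6%. Mitochondrial genes had 1634 nt, 54.2% and 51.9%, and all 19388 transcripts with a coding sequence had 1278 nt, 52.8% and 52.1%. Purines ranged from 50.4% (VARS) to 56.5% (HARS) among the cytosolic genes and from 47.6% (MARS2) to 54.6% (HARS2) among the mitochondrial ones. MARS2 is also the 1 gene of the 36 whose transcript has a single exon (chr2:197705369-197708387, plus strand, GRCh38).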

How the data were processed

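Footprint counts for each coding sequence, as whole numbers, were deposited by the authors in 4 tables. The deposited RPM values equal each count scaled to a total of 1000000 and were read only to check the counts. Per the submitters' processing notes, the tools include CASAVA 1.8 and STAR, with GRCh38 (hg38). The counting tool, the annotation and the handling of duplicate or multiply matching reads are not given in the sources used here. PCR reads without molecular identifiers are not independent molecules, so floors (3 counts) cover counting error only.

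Tests used edgeR 4.0.16 in R 4.3.3, with TMM, filterByExpr (minimum count 10), quasi-likelihood F-tests with group terms, and Benjamini-Hochberg adjustment over all genes of a comparison, at 0.05. The HEK293T table and the 8 K562 kit libraries without Ribo-Zero Plus were each 1 fit, and the Ribo-Zero Plus libraries were added in separate fits, in which oligos and formaldehyde were additive terms. The K562 size-selection fit had depletion and size as additive terms. Lines were compared on undepleted libraries summed by table. DESeq2 1.42.0, other scalings, no filter, other sets of samples, a replicate block and leaving out libraries were alternatives. The fits were first tested on simulated data with known changes.

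Replicates were compared by chi-square: for the RiboCop pair no difference beyond sampling noise was found (p = 0.103), but the labels give them different barcodes and their totals differ (156200 and 290502), so both were kept. Coding lengths and positions came from GENCODE 29 (GRCh38), which matched 97.4% of transcripts, with another transcript version for HARS and HARS2. Promoter sequences are RefSeq's. Named genes are all members called in a comparison, otherwise the 2 largest rises and falls among those averaging 50 or more counts, the 3 highest and lowest levels per class, and up to 3 called genes of other lists. A few others are given for pairs, subunits and complexes. The members and lists were chosen with earlier results of these data known.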

Additional observations from a re-analysis of the deposited data

How the results depend on the processing

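For NEBNext, Ribo-Zero Gold, RiboCop, FastSelect, riboPools, cold elution, fragment size and the interaction, the count of synthetase genes called was 0 under each alternative run. For the contrast of K562 with HEK lines, 12 calls (44.5% of all genes) became 8 to 21 on leaving out 1 table: 21 without HEK293T (49.5% of all genes), 8 without the K562 kit table (19.2%), 9 without the K562 size-selection table (27.7%) and 13 without HEK293FT (41%), and 8 by DESeq2 (19.7%). AARS, CARS, GARS, NARS, TARS, VARS, WARS and YARS were called higher in all 10 alternatives run, whereas QARS was called in 6, YARS2 in 8, RARS in 4 and EARS2 in 4 of the 9 that tested it. For Ribo-Zero Plus without additions, 4 calls became 0 by DESeq2 and 2 to 3 on leaving out an undepleted library. For the 4 Ribo-Zero Plus libraries, 9 calls (14.9% of all genes) became 5 with DESeq2 size factors (8.71%), 0 with only these and the undepleted libraries (0%), and 1 to 21 on leaving out 1 library (1.57% to 36.5%). The causes were not tested.

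Over all genes, the 4 Ribo-Zero Plus libraries gave 143 higher and 1288 lower calls, but 194 and 645 with DESeq2 size factors and 191 and 774 with total count scaling, and the median shift moved from -0.43 to -0.30. NEBNext in K562 gave 65 and 36, but 38 and 34 with total count scaling. Small uncalled log2 fold changes changed sign on leaving out 1 library: KARS with NEBNext in HEK293T (-0.0496 to 0.258), AARS with Ribo-Zero Gold (-0.450 to 0.0544), RARS with RiboCop (-0.0419 to 0.273), TARS2 (-0.378 to 0.0506) and SARS2 (-0.0404 to 0.593) with FastSelect, HARS2 with cold elution (-0.391 to 0.0273), and YARS in the interaction (-0.273 to 0.0434). Replicates in the HEK293T and K562 kit tables are linked in the labels by a number. Whether a number marks a shared sample was not settled, and the main fits did not pair replicates. Correlations of deviations between groups of 2 libraries were all positive in HEK293T, at 0.0647 to 0.137. In the K562 kit table they were -0.0492 to 0.0203. With a replicate block the number of synthetase genes called was 0 in each of the 6 comparisons that allow it. Leaving out a library could not be fitted in the K562 size-selection table, which has 1 residual degree of freedom.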
